A study of Homo sapiens with 24 samples.

Results

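The genes described here are 32 p53 targets and stress-response genes, chosen as a list of gene symbols and measured in 2 prostate cancer cell lines, each gene through its brightest probe set over all arrays. A probe set that names a single gene was found for 29 of the 32, out of 19775 genes with such a probe set. BTG2 and FDXR were not analysed here, and the only probe set of BBC3 names 3 genes, so it has no value of its own. Of the 29, 28 passed the filter on low intensity in VCaP, 29 in LNCaP and 28 in both. SPATA18 was the gene below the filter in VCaP.

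The data are 24 HG-U133 Plus 2.0 arrays of Affymetrix, 3 biological replicates in each of 8 groups; the p-values measure the spread between these samples. LNCaP cells, which overexpress the ETS factor ETV1, carried shETV1, a hairpin RNA that lowers ETV1, or its control shControl. VCaP cells, which carry the TMPRSS2-ERG fusion, received siERG, a small interfering RNA that lowers ERG, or its control siControl. The time of RNA interference is given as 24 h for every array of both lines. After 2 days without hormone, all cells of both lines were kept for 16 h with 10 nM dihydrotestosterone (DHT), the natural ligand of the androgen receptor, or with its vehicle ethanol (EtOH). The groups are therefore shETV1 DHT, shETV1 EtOH, shControl DHT and shControl EtOH in LNCaP, and siERG DHT, siERG EtOH, siControl DHT and siControl EtOH in VCaP. Each line is a single cancer cell line, and the 2 lines differ in p53 status. That difference cannot be told apart from the others between the lines. The labels call the LNCaP control both shControl and siControl.

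p53 is a transcription factor that is stabilised by DNA damage and other stress and switches on genes of cell cycle arrest, apoptosis, DNA repair and metabolism, together with MDM2 and PPM1D, which switch p53 off again. Many of the same genes answer to other factors, and CDKN1A, GDF15, SESN2 and ATF3 are also induced by ATF4, the factor of the integrated stress response to amino acid shortage and unfolded proteins.

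Values are intensities in array units as deposited, and changes are log2 units of intensity plus 16 with their standard error. A gene rose or fell when its Benjamini-Hochberg adjusted p from limma, taken over all genes tested, was below 0.05. Only changes within a line were tested, because the lines differ in their array medians (42.7 to 44.8 in LNCaP, 47.6 to 53.2 in VCaP) and may have been processed apart. The targeted genes fell, ETV1 by 0.61 ± 0.07 with EtOH and by 0.62 ± 0.07 with DHT in shETV1 cells, and ERG by 0.82 ± 0.06 with EtOH and by 1.09 ± 0.06 with DHT in siERG cells. Of the luminal markers, KLK3, HOXB13, KRT8 and KRT18 were above the array median on every array, while 1 to 3 of 10 markers of fibroblasts, endothelium and leukocytes were, with a summed intensity of 522 to 838. That sum was 594 to 616 in LNCaP shControl DHT cells and 788 to 817 in shControl EtOH cells, and 522 to 618 in VCaP siControl DHT cells and 599.6 to 628 in siControl EtOH cells; its part in the DHT results was not tested. In RNA from bulk cells, fewer cells that express a gene and less transcript per cell cannot be told apart.

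DHT moved most of these genes in both lines, and it moved them in both directions. In LNCaP shControl cells 8 of 29 rose and 8 fell, against 18.6% and 22.3% of all genes tested. In VCaP siControl cells 12 of 28 rose and 9 fell, against 19.6% and 25.4% of all genes. The median change over the genes was -0.02 in LNCaP and -0.02 in VCaP, beside medians of -0.01 and -0.03 over all genes. With DHT, 4 genes rose in both lines (AEN, BCL2L1, GADD45B and PMAIP1) and 3 fell in both (PHLDA3, SESN1 and TP53INP1). A further 5 went opposite ways: CDKN1A, GDF15 and SESN2 fell in LNCaP and rose in VCaP, and PERP and PLK2 rose in LNCaP and fell in VCaP. The LNCaP rise of PERP kept its call in only 8 of 23 alternatives. Of all 12305 genes tested in both lines, 9.89% rose in both, 11.6% fell in both and 3.54% went opposite ways.

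**Figure D1:**
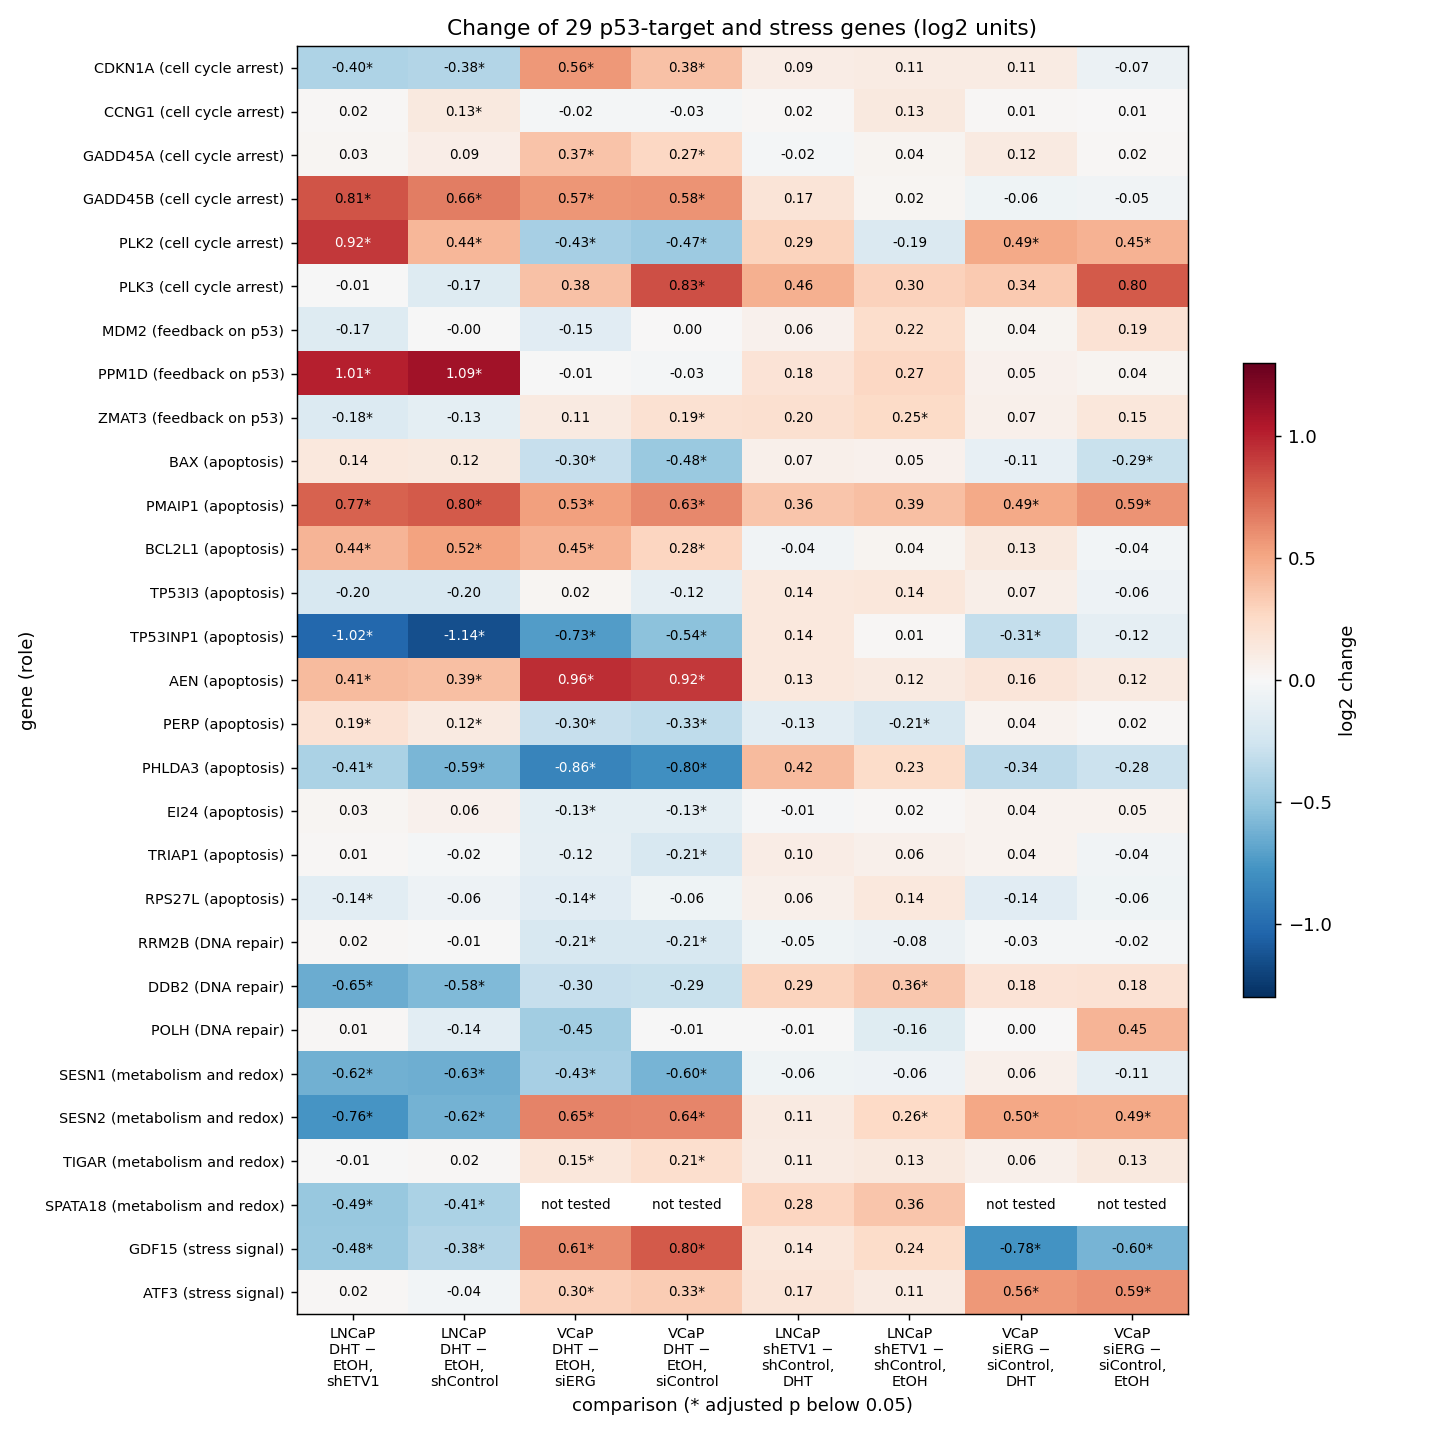
Log2 change of each of the 29 genes (rows, with the role of each gene) in 8 comparisons (columns), red for higher and blue for lower in the first-named group; a star marks an adjusted p below 0.05, and SPATA18 was not tested in VCaP. The 4 DHT columns on the left hold most of the stars, and CDKN1A, GDF15 and SESN2 are blue in LNCaP and red in VCaP there.

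Among the genes of cell cycle arrest, CDKN1A encodes p21, the inhibitor of cyclin-dependent kinases through which p53 halts the cycle. In LNCaP it had intensities of 1762, 1866 and 1850.0 in shControl DHT cells, against 2296, 2495 and 2358 in shControl EtOH cells. The VCaP values were 2847, 2759 and 2773 in siControl DHT cells, against 2277, 2089 and 2055 in siControl EtOH cells. The arrays did not overlap in either line, and they lay in opposite order. CDKN1A fell by 0.38 ± 0.04 in LNCaP (adjusted p = 3.36e-05) and rose by 0.38 ± 0.07 in VCaP (adjusted p = 0.00120). The difference between the responses, LNCaP minus VCaP, was -0.76 ± 0.08 (adjusted p = 5.43e-07).

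PLK2, a kinase of the polo family that is induced by p53, ran the other way. It had 728, 711 and 518 in LNCaP shControl DHT cells, against 531, 477 and 417 in shControl EtOH cells, so a single DHT array reached into the range of the EtOH arrays. VCaP arrays gave 360.0, 315 and 340.3 in siControl DHT cells, against 469, 487 and 467 in siControl EtOH cells, with no overlap. The rise was 0.44 ± 0.13 in LNCaP (adjusted p = 0.0201), the fall in VCaP -0.47 ± 0.05 (adjusted p = 2.09e-05), and the difference between them 0.91 ± 0.14 (adjusted p = 6.51e-05). The LNCaP call was lost without shControl EtOH replicate C (0.35, adjusted p = 0.0794) and without shControl DHT replicate A or B (0.35 and 0.37), whereas in shETV1 cells PLK2 rose by 0.92 ± 0.13 without overlap.

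GADD45B, a stress sensor that acts on p38 kinase signalling, rose in both lines. It had 179, 183 and 166 in LNCaP shControl DHT cells, against 97.1, 124 and 95.2 in shControl EtOH cells. In VCaP it had 243, 215 and 239 in siControl DHT cells, against 141, 153 and 155 in siControl EtOH cells. The changes were 0.66 ± 0.09 in LNCaP cells and 0.58 ± 0.06 in VCaP cells, and their difference of 0.08 had a 95% interval of -0.16 to 0.32. Its relative GADD45A had 0.09 ± 0.06 in LNCaP, where it did not pass, and rose by 0.27 ± 0.06 in VCaP (adjusted p = 0.00338). The difference between these 2 did not pass either, with an interval of -0.35 to -0.02 and an adjusted p of 0.0889.

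PLK3, another polo kinase of the stress response, rose in VCaP by 0.83 ± 0.24 (adjusted p = 0.0140), but it was dim, with 47.2, 34.1 and 63.7 in siControl DHT cells, against 33.2, 11.6 and 16.8 in siControl EtOH cells. It was above the array median on 5 of the 12 VCaP arrays, and on none of the siControl EtOH arrays. With that limit it is counted among the 12 genes that rose in VCaP. CCNG1, a p53-induced cyclin that recruits a phosphatase to MDM2, was bright in both lines and rose by 0.13 ± 0.04 in LNCaP (adjusted p = 0.0185). In VCaP its change of -0.03 ± 0.04 did not pass, and the difference of 0.16 ± 0.05 did (adjusted p = 0.0153).

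**Figure D2:**
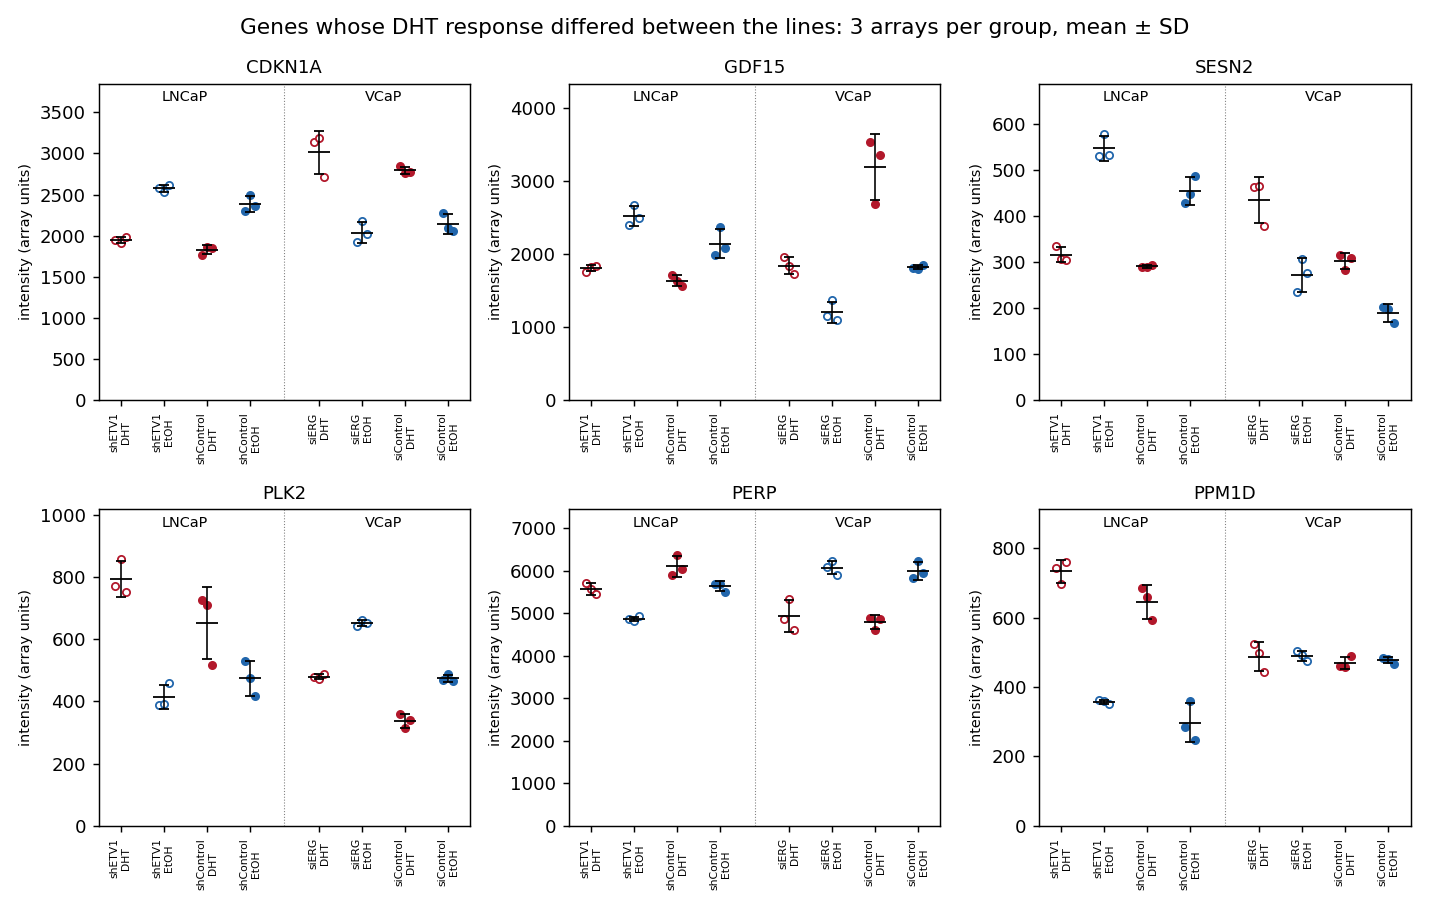
Intensity in array units of 6 genes on each array (circles, open for knockdown and filled for control cells, red for DHT and blue for EtOH), with the mean and SD of the 3 arrays of a group; LNCaP groups are left of the dotted line and VCaP groups right of it. In both knockdown and control cells, the DHT means of CDKN1A, GDF15 and SESN2 lie below the EtOH means in LNCaP and above them in VCaP, PLK2 and PERP do the reverse, and the DHT arrays of PPM1D stand clear of the EtOH arrays in LNCaP and overlap them in VCaP.

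The genes of the feedback loop on p53 parted from each other. MDM2, the ubiquitin ligase that degrades p53, did not pass in any comparison. It had 1652, 2129 and 1874 in LNCaP shControl DHT cells, against 1901, 2089.6 and 1670.0 in shControl EtOH cells. The VCaP values were 1955, 2052 and 1853 in siControl DHT cells, against 1969, 2065 and 1826 in siControl EtOH cells. DHT and EtOH arrays overlapped in control cells of both lines, and the DHT change had a 95% interval of -0.22 to 0.22 in LNCaP cells and of -0.20 to 0.20 in VCaP cells.

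PPM1D, the phosphatase WIP1 that removes activating phosphates from p53 and its kinases, had the largest rise of the 29 genes in LNCaP. It had 685, 658 and 592 in shControl DHT cells, against 284, 359 and 248 in shControl EtOH cells. VCaP arrays gave 459.8, 457 and 490.3 in siControl DHT cells, against 484, 482 and 466 in siControl EtOH cells. The LNCaP arrays stood clear of each other and the VCaP arrays overlapped. The change was 1.09 ± 0.11 in LNCaP (adjusted p = 1.15e-05) and -0.03 ± 0.06 in VCaP (95% interval -0.16 to 0.11), and the difference of 1.12 ± 0.13 passed (adjusted p = 1.01e-06).

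The promoter of PPM1D is shown because this gene had that rise and because it was the only one of 28 genes with a RefSeq promoter window (250 bases before to 50 after the transcript start, GRCh38.p14) to hold the cAMP response element TGACGTCA, to which CREB and ATF factors bind. Both strands were searched, and 1.85% of all 35116 windows hold it, a share that counts windows and not genes. The part of the element in the rise was not tested. The match lies 61 to 54 bases before the start, and the stretch printed is chr17:60600107-60600164 on the plus strand, with the element in capitals.
PPM1D: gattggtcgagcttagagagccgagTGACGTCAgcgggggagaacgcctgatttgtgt

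ZMAT3, a zinc finger protein that binds RNA and is a direct p53 target, had -0.13 ± 0.06 in LNCaP, where it did not pass, and rose by 0.19 ± 0.07 in VCaP (adjusted p = 0.0495), a call that was lost in 15 of 24 alternatives. The difference of -0.32 ± 0.09 passed (adjusted p = 0.0111). In LNCaP shETV1 cells it fell by 0.18 ± 0.06.

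Of the genes of apoptosis, PMAIP1 encodes NOXA, which neutralises the survival protein MCL1, and it rose with DHT in both lines. It had 1098, 1136 and 778 in LNCaP shControl DHT cells, against 568, 679.5 and 465 in shControl EtOH cells. In VCaP it had 700.3, 673 and 711 in siControl DHT cells, against 431, 412 and 494 in siControl EtOH cells. The arrays did not overlap in either line. The rise was 0.80 ± 0.16 in LNCaP (adjusted p = 0.00204) and 0.63 ± 0.08 in VCaP (adjusted p = 7.35e-05), and the 95% interval of the difference ran from -0.22 to 0.56.

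BCL2L1, whose main product BCL-XL opposes apoptosis, rose in the same groups. Its changes were 0.52 ± 0.07 in LNCaP (adjusted p = 0.000170) and 0.28 ± 0.07 in VCaP (adjusted p = 0.00723). AEN, a nuclease that digests DNA in dying cells, rose in both lines. The VCaP values were 222, 237 and 269 in siControl DHT cells, against 128, 111 and 123 in siControl EtOH cells. AEN rose by 0.39 ± 0.06 in LNCaP cells and by 0.92 ± 0.08 in VCaP cells, with a difference of -0.52 ± 0.11 that passed (adjusted p = 0.000665).

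TP53INP1, a stress protein of autophagy and apoptosis, had the largest fall of the 29 genes in LNCaP. It had 1985, 2014 and 1829 in LNCaP shControl DHT cells, against 4694, 4508 and 3779 in shControl EtOH cells. VCaP arrays gave 3488, 3484 and 3653 in siControl DHT cells, against 5047, 5291 and 5087 in siControl EtOH cells. It fell by 1.14 ± 0.07 in LNCaP (adjusted p = 3.48e-07) and by 0.54 ± 0.04 in VCaP (adjusted p = 1.34e-06), further in LNCaP by 0.61 ± 0.08 (adjusted p = 9.29e-06).

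PHLDA3, which competes with the kinase AKT for membrane lipids, fell by 0.59 ± 0.11 in LNCaP and by 0.80 ± 0.27 in VCaP, where the call was lost in 9 of 24 alternatives, among them each siControl array left out. The difference of 0.20 ± 0.31 did not pass. BAX, which pierces the outer mitochondrial membrane, fell in VCaP, with 265, 243 and 249 in siControl DHT cells, against 355, 341 and 381 in siControl EtOH cells. BAX had 0.12 ± 0.08 in LNCaP, changed by -0.48 ± 0.05 in VCaP (adjusted p = 2.71e-05) and differed between the lines by 0.60 ± 0.10 (adjusted p = 6.27e-05).

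PERP, a membrane protein of desmosomes and a p53 effector, was among the brightest genes. It had 5903, 6377 and 6031 in LNCaP shControl DHT cells, against 5694, 5693 and 5494 in shControl EtOH cells. In VCaP it had 4887, 4592 and 4864 in siControl DHT cells, against 5830.1, 6235 and 5930.3 in siControl EtOH cells. The rise of 0.12 ± 0.04 in LNCaP shControl cells (adjusted p = 0.0405) was small, and with quantile normalization it was 0.04 (adjusted p = 0.443) and with the mean of its probe sets -0.0264. Of 23 alternatives, 8 kept the call of this rise. The fall in VCaP was -0.33 ± 0.06 (adjusted p = 0.000928) and the difference between the lines 0.44 ± 0.07 (adjusted p = 4.85e-05). EI24 fell by 0.13 ± 0.04 and TRIAP1 by 0.21 ± 0.05 in VCaP, and neither passed in LNCaP. The EI24 call was lost in 12 of 23 alternatives, and its other probe set changed by -0.0084. RPS27L and TP53I3 did not pass in control cells of either line.

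In DNA repair, DDB2, the damage sensor of nucleotide excision repair, fell in LNCaP. It had 115, 106 and 132 in shControl DHT cells, against 179, 190.1 and 180.1 in shControl EtOH cells, with no overlap. The VCaP values were 76.4, 153 and 123 in siControl DHT cells, against 175, 109.9 and 149 in siControl EtOH cells, and the groups overlapped. The fall was -0.58 ± 0.08 in LNCaP (adjusted p = 0.000234), the VCaP change of -0.29 ± 0.25 did not pass, and the difference of -0.29 had a wide 95% interval of -0.86 to 0.29. RRM2B, the p53-induced subunit of ribonucleotide reductase, had -0.01 ± 0.07 in LNCaP and fell by 0.21 ± 0.05 in VCaP. POLH, a polymerase that copies past damage, did not pass in any comparison.

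DDB2 was the only one of the 28 genes with a p53 response element in its window, taken as 2 decamer sites at most 13 bases apart, which 10 of all 35116 windows (0.0285%) hold. The site is shown because it is the p53 element itself. The annotated gene begins at 47214454, upstream of the transcript start on which this window is built. The site lies 6 to 26 bases past that later start, at chr11:47214979-47214999 on the plus strand, with the decamer sites in capitals.
DDB2: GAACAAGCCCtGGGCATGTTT
The ATF4 element TGATGNAAT was in 0 of the 28 windows and in 0.991% of all, and the ETS motif CCGGAAGT was in those of BCL2L1 and RPS27L and in 4.14% of all. No window of these genes held more than one of the 4 motifs.

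The sestrins, which restrain the growth kinase mTORC1, parted from each other with DHT. SESN1 fell in both lines to nearly the same degree, by 0.63 ± 0.04 in LNCaP (adjusted p = 8.96e-07) and by 0.60 ± 0.05 in VCaP (adjusted p = 2.55e-06). It had 1249, 1251 and 1359 in LNCaP shControl DHT cells, against 2049.6, 2000.3 and 1949.8 in shControl EtOH cells. VCaP arrays gave 1135, 1138 and 1206 in siControl DHT cells, against 1740.0, 1723 and 1839 in siControl EtOH cells. The 95% interval of the difference between the 2 falls was -0.16 to 0.10.

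SESN2 went opposite ways. It had 289, 289 and 293 in LNCaP shControl DHT cells, against 427, 448 and 486 in shControl EtOH cells. In VCaP it had 314, 282 and 308 in siControl DHT cells, against 203, 196 and 167 in siControl EtOH cells. The arrays did not overlap in either line. The fall in LNCaP was -0.62 ± 0.06 (adjusted p = 7.00e-06), the rise in VCaP 0.64 ± 0.11 (adjusted p = 0.000796) and the difference -1.25 ± 0.13 (adjusted p = 2.62e-07). TIGAR, which lowers glycolytic flux, had 0.02 ± 0.04 in LNCaP and rose by 0.21 ± 0.05 in VCaP. SPATA18, a gene of mitochondrial quality control, fell by 0.41 ± 0.14 in LNCaP, where it was dim.

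Of the stress signals, GDF15 is a secreted cytokine that rises with many kinds of cell stress. It had 1709, 1628 and 1563 in LNCaP shControl DHT cells, against 1982, 2366 and 2078 in shControl EtOH cells. The VCaP values were 3539.6, 2684 and 3358 in siControl DHT cells, against 1814, 1794 and 1851 in siControl EtOH cells. GDF15 fell by 0.38 ± 0.07 in LNCaP (adjusted p = 0.000845), rose by 0.80 ± 0.11 in VCaP (adjusted p = 0.000135) and differed by -1.18 ± 0.13 (adjusted p = 7.36e-07). ATF3, an early transcription factor of the stress response, had -0.04 ± 0.06 in LNCaP, rose by 0.33 ± 0.08 in VCaP (adjusted p = 0.00500) and differed by -0.36 ± 0.10 (adjusted p = 0.00776), a difference that was 0.0484 with the mean of its probe sets.

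**Figure D3:**
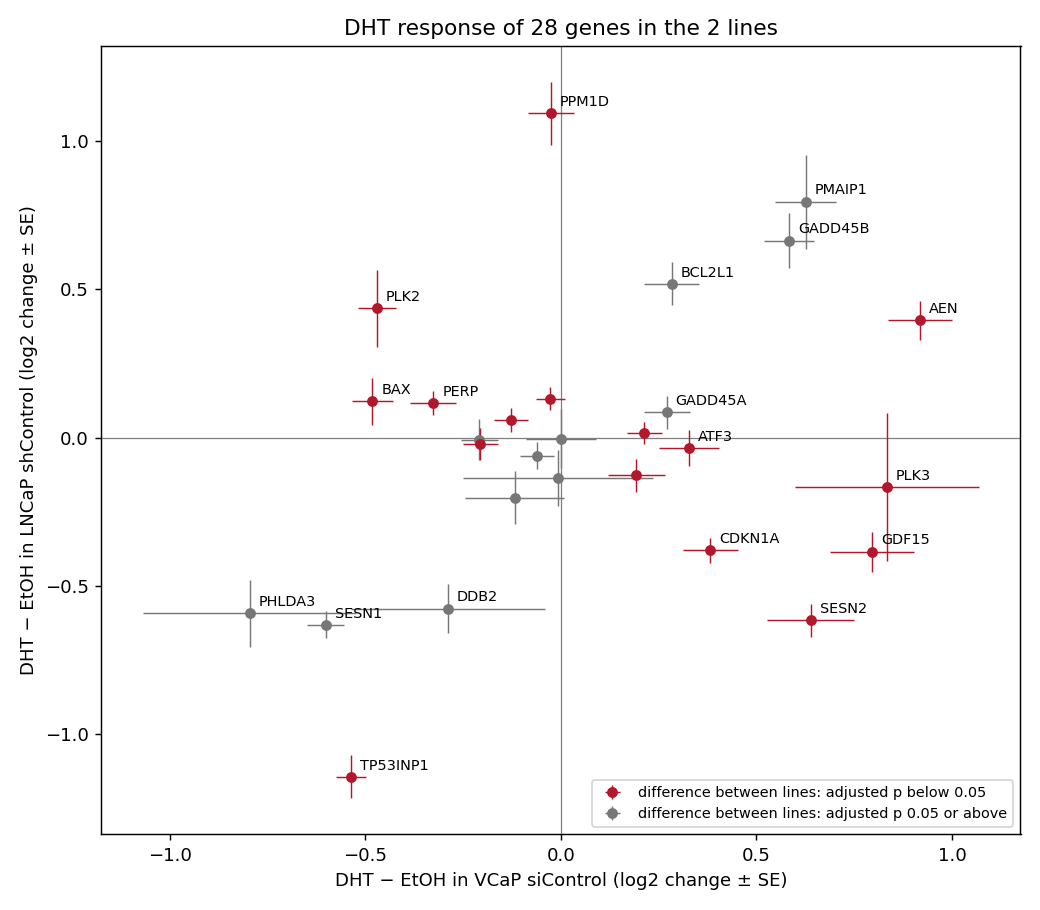
DHT response (log2 change ± SE, n = 3 arrays per group) of the 28 genes tested in both lines, VCaP siControl on the x axis and LNCaP shControl on the y axis; red marks a difference between the lines with adjusted p below 0.05, and names are given where either change exceeds 0.25. CDKN1A, GDF15 and SESN2 lie at the lower right and PLK2, PERP and BAX at the upper left.

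In all, the DHT response differed between the lines for 16 of the 28 genes, 7 higher and 9 lower in LNCaP, or 57.1% against 31.9% of all genes tested in both lines. The 5 genes with opposite responses were among the 16, and each kept its call for the difference under every alternative setting in which it was measured and with each array left out.

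The same test in knockdown cells compares other arrays, though all arrays of a line share the estimate of the spread. In shETV1 cells DHT raised 7 and lowered 10 of 29 genes, against 18.8% and 19% of all genes, and in siERG cells it raised 10 and lowered 9 of 28, against 20.1% and 25.2%. The genes that rose in both lines were again AEN, BCL2L1, GADD45B and PMAIP1, and those that went opposite ways were again CDKN1A, GDF15, SESN2, PERP and PLK2, while 4 fell in both (PHLDA3, RPS27L, SESN1 and TP53INP1). For GDF15, a second, dim probe set had the reverse signs here, with 0.33 in shETV1 and -0.29 in siERG cells. Of all genes 9.65% rose in both, 10.1% fell in both and 3.66% went opposite ways. CDKN1A had 1948, 1909 and 1983 in shETV1 DHT cells, against 2575, 2529 and 2617 in shETV1 EtOH cells. In siERG DHT cells it had 3139, 3186 and 2714, against 1917, 2173 and 2015 in siERG EtOH cells. The changes of CDKN1A were -0.40 ± 0.04 in LNCaP and 0.56 ± 0.07 in VCaP.

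In siERG cells the ratio of 3' to 5' GAPDH probe sets, which tracks RNA integrity, was 1.03 ± 0.01 with DHT and 1.09 ± 0.02 with EtOH (SD, n = 3 arrays each). The GAPDH ratios of these 2 groups did not overlap (1.02 to 1.04 with DHT, 1.07 to 1.11 with EtOH). The ACTB ratio was 2.84 ± 0.31 with DHT and 3.05 ± 0.45 with EtOH. With the GAPDH ratio added to the fit, 7 of 28 genes passed in siERG cells, 3 higher and 4 lower. This alternative was chosen once the data had been seen, and the part of the ratio in the result was not tested further. CDKN1A kept its call there (0.49, adjusted p = 0.0478) and GDF15 (0.36, adjusted p = 0.271), PMAIP1 (0.33, adjusted p = 0.152), SESN2 (0.69, adjusted p = 0.0711) and PERP (-0.38, adjusted p = 0.0537) did not.

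The knockdown altered none of these responses past the threshold. The interaction (DHT response in knockdown cells minus DHT response in control cells) was called by limma for 0 of 29 genes in LNCaP and 0 of 28 in VCaP, against 0.101% and 0.288% of all genes. At an unadjusted p below 0.05, 1 gene in LNCaP and 3 in VCaP passed, against 7.5% and 10.9% of all genes. In LNCaP this was PLK2 (0.48 ± 0.18), and in VCaP they were BAX (0.18 ± 0.07), SESN1 (0.17 ± 0.07) and TP53INP1 (-0.19 ± 0.05). For CDKN1A the interaction had a 95% interval of -0.15 to 0.11 in LNCaP cells and of -0.04 to 0.40 in VCaP cells.

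Lowering ERG moved a small set of these genes, in the same way with either treatment. With EtOH 4 of 28 rose and 2 fell, against 5.37% and 5.87% of all genes, and with DHT 4 rose and 2 fell, against 3.79% and 5.18%. ATF3, PLK2, PMAIP1 and SESN2 rose and GDF15 fell with both. The EtOH and DHT comparisons set no array in common against each other, but they share the estimate of the spread. BAX fell with EtOH only past the threshold and TP53INP1 with DHT only.

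ATF3 had 485, 543 and 514 in siERG EtOH cells, against 323, 346 and 338 in siControl EtOH cells. With DHT it had 685, 669.9 and 559 in siERG cells, against 441, 402 and 434 in siControl cells. The rise was 0.59 ± 0.08 with EtOH (adjusted p = 0.000960) and 0.56 ± 0.08 with DHT (adjusted p = 0.00117), and no siERG array overlapped its controls.

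PMAIP1 had 671, 723 and 636 in siERG EtOH cells, against 431, 412 and 494 in siControl EtOH cells. With DHT it had 1045, 1010.5 and 906 in siERG cells, against 700.3, 673 and 711 in siControl cells. It rose by 0.59 ± 0.08 with EtOH and by 0.49 ± 0.08 with DHT, and its other probe set moved the same way (0.61 with EtOH and 0.51 with DHT). The siERG EtOH arrays overlapped the siControl DHT arrays.

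PLK2 had 644, 662 and 652 in siERG EtOH cells, against 469, 487 and 467 in siControl EtOH cells. With DHT it had 480.2, 473 and 488 in siERG cells, against 360.0, 315 and 340.3 in siControl cells. The rise of 0.45 ± 0.05 with EtOH (adjusted p = 0.000326) and of 0.49 ± 0.05 with DHT (adjusted p = 0.000154) stands beside the fall of this gene with DHT in siControl cells, a comparison that shares the siControl arrays. With EtOH, SESN2 rose by 0.49 ± 0.11 (adjusted p = 0.0182), and with DHT by 0.50 ± 0.11 (adjusted p = 0.0184), with means of 272 in siERG and 188 in siControl cells with EtOH, and of 435 in siERG and 302 in siControl cells with DHT. Its call was lost with some single arrays left out, at 0.41 (adjusted p = 0.0669) without siControl EtOH replicate C, 0.41 without siERG EtOH replicate B, 0.48 without siERG EtOH replicate C, and 0.45 to 0.52 without siControl DHT replicates B and C or siERG DHT replicates A and B.

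GDF15 fell while the other stress signal ATF3 rose. It had 1148, 1364 and 1091 in siERG EtOH cells, against 1814, 1794 and 1851 in siControl EtOH cells. With DHT it had 1965, 1837 and 1723 in siERG cells, against 3539.6, 2684 and 3358 in siControl cells. The fall was -0.60 ± 0.11 with EtOH (adjusted p = 0.00560) and -0.78 ± 0.11 with DHT (adjusted p = 0.00119). The probe set of GDF15 ends in _x_at, which marks probes that can bind related transcripts. A second, dim probe set moved the other way, by 0.61 with EtOH and by 0.10 with DHT. The mean of the probe sets gave 0.0581 with EtOH.

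BAX had 289.7, 299.6 and 283 in siERG EtOH cells, against 355, 341 and 381 in siControl EtOH cells, a fall of 0.29 ± 0.05 (adjusted p = 0.00574). TP53INP1 had 2864, 2892 and 2817 in siERG DHT cells, against 3488, 3484 and 3653 in siControl DHT cells, a fall of 0.31 ± 0.04 (adjusted p = 0.000666). CDKN1A and MDM2 did not pass, with 95% intervals of -0.23 to 0.08 and -0.01 to 0.39 for EtOH.

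The GAPDH ratio ran opposite ways in the 2 comparisons: 1.09 ± 0.02 in siERG and 1.05 ± 0.01 in siControl cells with EtOH, and 1.03 ± 0.01 in siERG and 1.07 ± 0.01 in siControl cells with DHT. With the ratio as a covariate PLK2 kept its call in both, ATF3 and PMAIP1 with EtOH, and GDF15 and TP53INP1 with DHT. The values that lost it were ATF3 (0.55, adjusted p = 0.0667) and PMAIP1 (0.35, adjusted p = 0.180) with DHT, GDF15 (-0.43, adjusted p = 0.219) and BAX (-0.22, adjusted p = 0.205) with EtOH, and SESN2 with both (0.46 and 0.53).

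**Figure D4:**
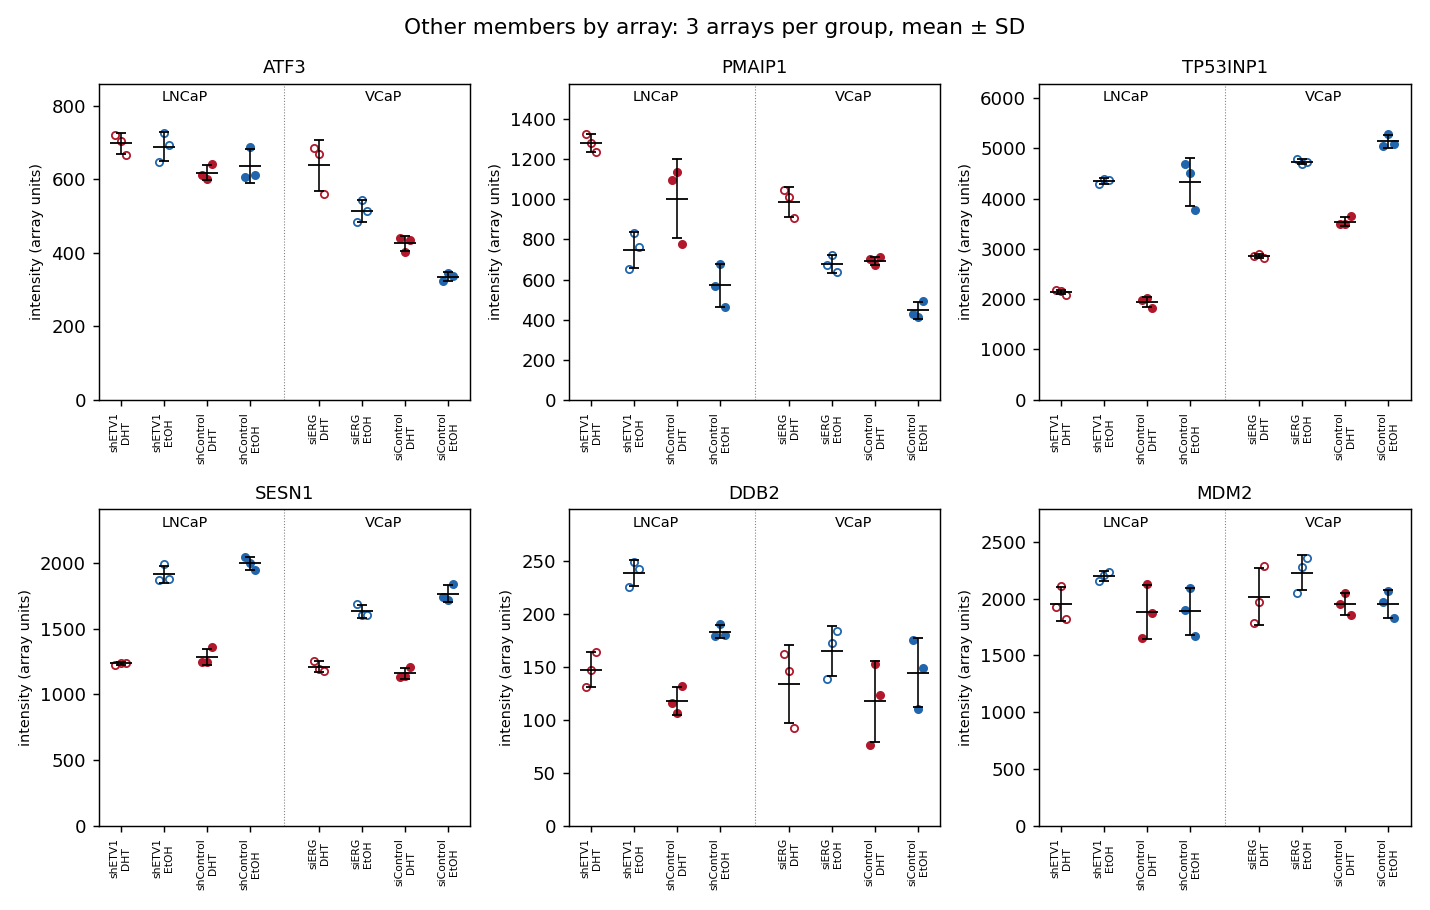
Intensity in array units of 6 further genes on each array (circles, open for knockdown and filled for control cells, red for DHT and blue for EtOH), with the mean and SD of the 3 arrays of a group. ATF3 and PMAIP1 are higher in siERG than in siControl cells, TP53INP1 and SESN1 are lower with DHT in both lines, DDB2 is lower with DHT in LNCaP, and the DHT and EtOH arrays of MDM2 overlap in control cells of both lines.

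Lowering ETV1 moved few of these genes. With EtOH 3 of 29 rose and 1 fell, against 1.22% and 2.97% of all genes. DDB2 had 225, 249 and 242 in shETV1 EtOH cells, against 179, 190.1 and 180.1 in shControl EtOH cells, and rose by 0.36 ± 0.08 (adjusted p = 0.0417). ZMAT3 rose by 0.25 ± 0.06 (adjusted p = 0.0306), with 823, 813 and 829.6 in shETV1 and 657, 713 and 691 in shControl cells. SESN2 rose by 0.26 ± 0.06 (adjusted p = 0.0293), and PERP fell by 0.21 ± 0.04 (adjusted p = 0.0181). These calls are close to the threshold: the count of 4 became 0 without shControl EtOH replicate A, without shETV1 EtOH replicate A or C, without the intensity filter and with the GAPDH ratio as a covariate, while a trended and robust variance called 7. The GAPDH ratio was 1.07 ± 0.02 in shETV1 and 1.11 ± 0.03 in shControl cells with EtOH.

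With DHT limma called 0 of 29 genes in shETV1 cells, against 2.68% rising and 2.5% falling among all genes. At an unadjusted p below 0.05, 8 of the 29 passed, against 20.1% of all genes, and 3 were called with a trended and robust variance. The median change of the 29 genes was 0.12 with EtOH and 0.11 with DHT, beside 0.01 and 0.02 over all genes. PHLDA3 (0.42 ± 0.11, adjusted p = 0.0641) and ZMAT3 (0.20 ± 0.06, adjusted p = 0.0654) came nearest to the threshold.

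The knockdown effects, LNCaP shETV1 minus VCaP siERG, differed for 6 of 28 genes with EtOH, against 9.56% of all genes, and for 4 with DHT, against 7.5%. Line, targeted factor, type of RNA and depth of knockdown differ together here and cannot be told apart. GDF15 had the largest difference with either treatment, 0.84 ± 0.13 with EtOH (adjusted p = 0.000336) and 0.92 ± 0.13 with DHT (adjusted p = 0.000127), being 0.24 ± 0.07 after shETV1 and -0.60 ± 0.11 after siERG with EtOH. ATF3 differed by -0.48 ± 0.10 with EtOH (adjusted p = 0.00403) and -0.39 ± 0.10 with DHT (adjusted p = 0.0179). The GDF15 difference with EtOH was -0.0554 with the mean of its probe sets, and once the GAPDH ratio was a covariate it was 0.61 (adjusted p = 0.0914). SESN2, which was called with EtOH after both knockdowns, had a difference of -0.23 ± 0.13 that did not pass.

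Because CDKN1A, GDF15, SESN2 and ATF3 also answer to ATF4, 20 other genes of the ATF4 branch were read beside them. Like the members, these 20 genes were chosen with earlier results of these data known. The part of ATF4 in these responses was not tested. With DHT 3 of the 20 rose and 10 fell in LNCaP shControl cells, and 17 rose and 1 fell in VCaP siControl cells, against 18.6% rising and 22.3% falling among all genes in LNCaP, and 19.6% and 25.4% in VCaP. Their median change was -0.17 in LNCaP and 0.59 in VCaP, beside -0.01 and -0.03 over all genes, and the response differed between the lines for 17 of them, 1 higher and 16 lower in LNCaP, against 31.9% of all genes. ASNS, which makes asparagine, changed by -0.24 ± 0.05 in LNCaP and by 1.12 ± 0.06 in VCaP. PSAT1, an enzyme of serine synthesis, changed by -0.32 ± 0.07 in LNCaP and by 0.95 ± 0.05 in VCaP, and SLC7A11, the cystine importer, by -0.30 ± 0.04 in LNCaP and by 0.91 ± 0.10 in VCaP. ATF4 itself, named after its values were seen, had -0.02 ± 0.04 in LNCaP and rose by 0.21 ± 0.07 in VCaP.

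The genes that rose in LNCaP were 3: VLDLR, a lipoprotein receptor, which rose by 1.44 ± 0.08 in LNCaP and fell by 0.23 ± 0.04 in VCaP, HERPUD1, a gene of protein disposal at the endoplasmic reticulum, which rose in both (0.80 ± 0.06 in LNCaP and 0.62 ± 0.04 in VCaP), and MTHFD2, a mitochondrial folate enzyme named after its values were seen (0.15 ± 0.05 in LNCaP and 0.78 ± 0.06 in VCaP). In knockdown cells 2 of the 20 rose and 12 fell in LNCaP, and 17 rose and 1 fell in VCaP, or 12 and 1 in VCaP once the GAPDH ratio was in the fit, while 18.8% of all genes rose and 19% fell in LNCaP knockdown cells, and 20.1% rose and 25.2% fell in VCaP ones. With arrays centred on their median, 4 rose and 6 fell in LNCaP shControl cells. After siERG 3 rose and 3 fell with EtOH, against 5.37% and 5.87% of all genes, with PSAT1 (0.32 ± 0.05) and STC2 (0.31 ± 0.08), a stress-induced secreted protein, rising and VLDLR (-0.74 ± 0.04) and DDIT4 (-0.28 ± 0.06), an inhibitor of mTORC1, falling among them. After shETV1 with EtOH limma called 0 of the 20, against 1.22% rising and 2.97% falling among all genes.

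**Figure D5:**
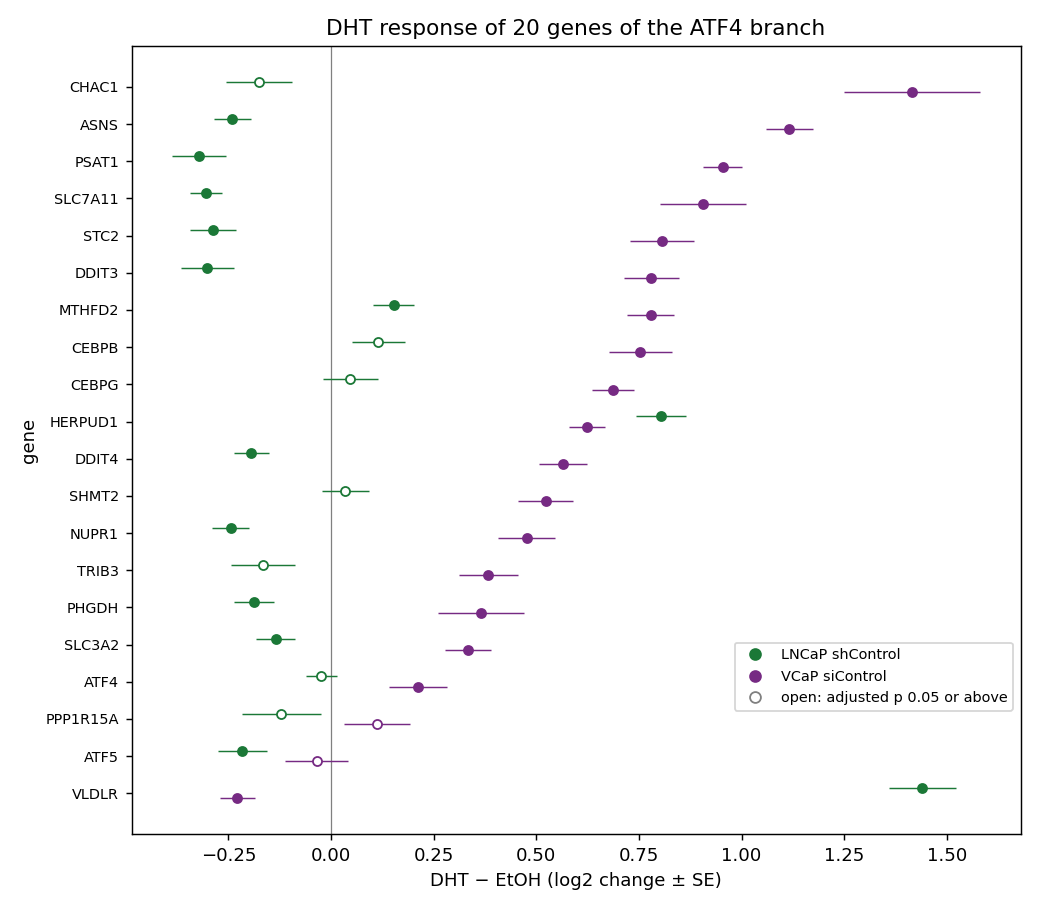
DHT response (log2 change ± SE, n = 3 arrays per group) of 20 genes of the ATF4 branch in LNCaP shControl (green) and VCaP siControl cells (purple), ordered by the VCaP value; filled points have an adjusted p below 0.05. Most purple points lie right of 0 and most green points at or left of it, with HERPUD1 right of 0 in both and VLDLR reversed.

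Of 21 genes that set the level or activity of p53, 5 rose and 4 fell with DHT in LNCaP shControl cells, and 6 rose and 5 fell in VCaP siControl cells. These shares are near those of all genes (18.6% and 22.3% in LNCaP, 19.6% and 25.4% in VCaP). HIPK2, a kinase that primes p53 for apoptosis, rose in both, by 0.54 ± 0.03 in LNCaP and by 1.01 ± 0.07 in VCaP. SIRT1, a deacetylase of p53, rose by 0.36 ± 0.04 in LNCaP and fell by 0.18 ± 0.05 in VCaP. CDKN2A, the locus of p16 and ARF, fell by 0.19 ± 0.06 in LNCaP and by 0.81 ± 0.09 in VCaP, and CHEK1, the checkpoint kinase, by 0.29 ± 0.05 in LNCaP and by 0.60 ± 0.09 in VCaP. MDM4, the partner of MDM2, had -0.01 ± 0.05 in LNCaP and rose by 0.52 ± 0.13 in VCaP (adjusted p = 0.00615). None of the 21 passed after either knockdown with either treatment. Among all genes, 5.37% rose and 5.87% fell after siERG with EtOH, and 3.79% and 5.18% with DHT. After shETV1, 1.22% rose and 2.97% fell with EtOH, and 2.68% and 2.5% with DHT.

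Among further p53 targets that are not in the list of 32, 5 rose and 9 fell of 26 in LNCaP shControl cells, and 5 rose and 11 fell of 27 in VCaP siControl cells, against 18.6% and 22.3% of all genes in LNCaP, and 19.6% and 25.4% in VCaP. FAS, the death receptor, fell by 0.49 ± 0.08 in LNCaP and by 1.07 ± 0.04 in VCaP, and RAP2B, a small GTPase, fell by 0.42 ± 0.05 in LNCaP and by 1.64 ± 0.05 in VCaP. TNFRSF10B, the TRAIL receptor DR5, rose by 1.20 ± 0.05 in LNCaP and by 0.39 ± 0.05 in VCaP. IGFBP3, which binds insulin-like growth factors, fell by 1.10 ± 0.07 in LNCaP and fell in VCaP too, and it also fell in shETV1 cells with EtOH (-0.81 ± 0.07). FAS fell in siERG cells too, by 0.45 ± 0.04 with EtOH and by 0.54 ± 0.04 with DHT.

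The BCL2 family was read in 10 further genes, which leave out its members BCL2L1, PMAIP1 and BAX described above. Of these 10, 0 rose and 3 fell in LNCaP shControl cells by limma, against 18.6% and 22.3% of all genes. In VCaP siControl cells 1 rose and 4 fell, against 19.6% and 25.4%. BMF, which binds and blocks survival proteins, fell by 1.41 ± 0.15 in LNCaP and by 0.60 ± 0.06 in VCaP. BCL2L11, the related protein BIM, had -0.04 ± 0.07 in LNCaP and fell by 0.89 ± 0.06 in VCaP. BCL2L2, a survival protein, fell by 0.19 ± 0.05 in LNCaP and rose by 0.35 ± 0.06 in VCaP. Of 16 cell cycle genes that p53 is known to repress, 1 rose and 3 fell in LNCaP and 0 rose and 7 fell in VCaP, beside the same shares of all genes. Those that fell in VCaP included CDK1 (-0.37 ± 0.05) and CCNB2 (-0.50 ± 0.08), both drivers of mitosis. Of 8 immediate early genes, which answer within minutes to growth factors and stress, 2 rose and 2 fell in siERG cells with EtOH, and 2 rose and 0 fell by limma with DHT. JUN, a partner of ATF3, rose by 0.41 ± 0.06 with EtOH and by 0.52 ± 0.06 with DHT, and EGR1 by 0.36 ± 0.06 with EtOH and by 0.29 ± 0.06 with DHT. MYC (-0.94 ± 0.11) and DUSP1 (-0.23 ± 0.06) fell with EtOH. Of all genes, 5.37% rose and 5.87% fell in siERG cells with EtOH, and 3.79% rose and 5.18% fell with DHT.

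Without hormone, the ranks of the genes in control cells of the lines are given as a description with no test: 17 of the 29 had a higher percentile among the 19775 genes in all LNCaP shControl EtOH arrays than in any VCaP siControl EtOH array, 5 a lower one and 7 overlapped. Of all 19775 genes 29.3% were higher and 19% lower in this way, and of the 12305 tested in both lines 40.9% and 23.4%. The median difference was 1.19 percentile points. CDKN1A lay at percentile 93.2 in LNCaP and 92.0 in VCaP, and MDM2 at 90.9 in LNCaP and 91.0 in VCaP. The gaps were wider for SESN2 (69.5 in LNCaP, 55.2 in VCaP) and ATF3 (75.0 in LNCaP, 63.5 in VCaP), and PPM1D was lower in LNCaP (62.8 against 69.2 in VCaP).

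Of 89 calls of these genes in the within-line comparisons, 52 could be set beside another probe set of the same gene that passed the filter. In 47 of these every such probe set had the same sign, and in 5 one had the opposite sign, 4 of them of GDF15 and 1 of ZMAT3.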

How the data were processed

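RNA of 24 samples was hybridised to 1-colour HG-U133 Plus 2.0 arrays. The deposited series table gives 1 intensity per probe set and array on a linear scale. The labels do not state how the authors summarised and scaled the arrays, and no further scaling was applied. Each gene was read from its brightest probe set that names 1 gene, and log2(intensity + 16) was tested with limma 3.58.1 in R 4.3.3. The test was fitted per line over its 12 arrays, on genes above the array median on at least 3 of them, with Benjamini-Hochberg adjustment over all genes tested. Differences between lines were fitted over the 24 arrays. The members and lists were chosen with earlier results of these data known. All members are described. From the other lists, up to 2 risen and 2 fallen genes with the smallest adjusted p were named per comparison, with MDM4, ERG, ETV1 and KLK3. Alternatives changed the probe sets, filter, pseudocount, normalization, variance model, samples fitted and covariates. Replicates with the same letter deviated together little or not at all (correlations -0.12 to 0.13), so no block was used. For DHT in siERG cells, each DHT array correlated best with the EtOH array of its own letter (0.11, 0.03 and 0.11). The test was checked on simulated data. The number of arrays limits the precision.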

Additional observations from a re-analysis of the deposited data

Results flagged for a closer look

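The responses of these genes that differed between the lines by a test of the difference itself are given here as values, LNCaP minus VCaP in log2 units with limma's adjusted p below 0.05. For the DHT response of control cells, the differences above 0 were PPM1D 1.12, PLK2 0.91, BAX 0.60, PERP 0.44, EI24 0.19, TRIAP1 0.18 and CCNG1 0.16. Those below 0 were SESN2 -1.25, GDF15 -1.18, PLK3 -1.0, CDKN1A -0.76, TP53INP1 -0.61, AEN -0.52, ATF3 -0.36, ZMAT3 -0.32 and TIGAR -0.20. TRIAP1 lost its call in 21 of 35 alternatives and PLK3, which was dim, in 12 of 35.

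For the knockdown effect with EtOH, shETV1 in LNCaP minus siERG in VCaP, GDF15 had 0.84, BAX 0.34, RPS27L 0.20, PERP -0.22, ATF3 -0.48 and PLK2 -0.64. With DHT, GDF15 had 0.92, TP53INP1 0.45, RPS27L 0.21 and ATF3 -0.39. RPS27L lost its call in 17 of 35 alternatives with EtOH and in 18 of 35 with DHT. The EtOH calls of PERP and BAX were lost in 23 of 34 and 10 of 34. GAPDH 3' to 5' ratios moved with the EtOH groups, and with the ratio as a covariate limma called none of the 28 genes for the EtOH difference.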

How the results depend on the processing

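Of 115 called changes of these genes, 52 kept direction and call under every alternative and with each array left out, 63 lost the call somewhere and 4 of those reversed. All 4 reversed with the mean of all probe sets of a gene: ATF3 in the DHT difference between lines (0.0484), PERP with DHT in LNCaP shControl cells (-0.0264), and GDF15 after siERG with EtOH (0.0581) and in the knockdown difference with EtOH (-0.0554). The cause was not tested. Counts of called genes moved by over 1.5 times as follows. With the mean of probe sets, 3 were called after siERG with DHT, 1 after shETV1 with EtOH, 2 after shETV1 with DHT and 1 for the knockdown difference with EtOH. Without probe sets ending in _x_at or _s_at, which leaves 18 genes in each line, the counts were 2 after siERG with EtOH, 3 after siERG with DHT, 2 after shETV1 with EtOH, 1 after shETV1 with DHT, 9 for DHT in siERG and 11 in siControl cells, 8 for DHT in shETV1 and 8 in shControl cells, 6 for the DHT difference, and 1 and 2 for the knockdown differences with EtOH and DHT. With no intensity filter, 0 were called after shETV1 with EtOH and 3 for the knockdown difference with EtOH. A trended and robust variance called 7 after shETV1 with EtOH and 3 with DHT, and a fit of only the groups compared called 1 and 1. With the GAPDH ratio, 3 were called after siERG with DHT, 7 for DHT in siERG cells, 0 after shETV1 with EtOH and 0 for the knockdown difference with EtOH. With the ACTB ratio, 2 were called after shETV1 with EtOH and 1 with DHT. Both ratios were chosen after seeing the data.

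With each array left out in turn, the count ran from 5 to 7 after siERG with either treatment, 0 to 4 after shETV1 with EtOH, 0 to 1 after shETV1 with DHT, 15 to 19 for DHT in siERG and 17 to 21 in siControl cells, 13 to 17 for DHT in shETV1 and 12 to 16 in shControl cells, 14 to 16 for the DHT difference, and 3 to 6 and 2 to 6 for the knockdown differences with EtOH and DHT. The knockdown difference with EtOH had 3 without siERG EtOH replicate C, siControl EtOH replicate C, shETV1 EtOH replicate B or C, or shControl EtOH replicate A or C, and with DHT it had 2 without siERG DHT replicate B. The shETV1 count with EtOH was also 1 without shETV1 EtOH replicate B and 2 without shControl EtOH replicate C. The interaction counts by limma were 0 in both lines throughout. With the replicate block, 108 of the 115 changes kept their call. Those that did not included PERP for DHT in LNCaP shControl cells (adjusted p = 0.0644) and SESN2 after shETV1 with EtOH (adjusted p = 0.0701). Replicate letters were not used to pair the samples in the main fit. The median change of all genes for DHT in siERG cells was 0.10 with arrays centred on their median and -0.02 without centring.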
